A study of Caenorhabditis elegans with 24 samples.

Results

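The RNA of germline nuclei enriched from *daf-2(e1370)* animals was compared with the RNA of whole *daf-2(e1370)* worms. The comparison takes 6 of the 24 samples of the series, 3 nuclei samples and 3 worm samples, and covers every gene with at least 1 CPM (read counts scaled to library size) in at least 3 of the 12 libraries of the nuclei table, 13613 of 14206 genes. DAF-2 is the insulin/IGF-1 receptor of *Caenorhabditis elegans*, and *e1370* is a reduction-of-function allele. The strain JTL642 carries *daf-2(e1370)* III together with *ljt3[hsf-1::degron::gfp]* I, a tag by which the heat shock factor HSF-1 can be degraded, and *ieSi38* IV, which drives the auxin adaptor TIR1 from the germline *sun-1* promoter. The strain used as wild type, JTL621, carries the same tag and the same TIR1 transgene, with *unc-119(ed3)* III and a wild-type *daf-2* gene, and gave a further 3 nuclei and 3 worm samples of the table. No auxin is given in the labels of these 12 samples. Each preparation used young adults in bulk, so that every sample pools many hermaphrodites, which were lightly fixed in cold dimethylformamide before homogenization, and the enriched nuclei and a lysate of whole worms were sequenced as polyA-selected, directional, paired-end libraries.

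A lysate of whole worms holds nuclear and cytoplasmic RNA of all tissues. Nuclei hold RNA as it is made, with unspliced precursors, ribosomal precursors in the nucleolus and noncoding RNA that is not exported, while most finished mRNA is in the cytoplasm. The germline is the largest proliferating tissue of the adult and stores many mRNAs in its shared cytoplasm for later use in oocytes and embryos. The design changes the tissue and the cell compartment at once, so that their parts in any difference cannot be told apart, and in bulk samples fewer cells of a type cannot be told from less RNA per cell.

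The label was checked against marker genes. Below, a gene rose or fell where it passed limma's test of the deposited log2 values, with p-values adjusted over all genes and a threshold of 0.05. Values in brackets are its mean CPM in *daf-2* nuclei against *daf-2* worms and its log2 fold change (log2FC) with the SE. All 3 markers of body wall muscle and all 5 markers of the intestine fell in *daf-2* nuclei, as *unc-54* and *ges-1* show in the plot of single genes. The intestine marker *elt-2* was kept by the filter through worms alone, so that its decrease is a description and no support for the label. Of 10 germline markers, however, 1 rose, 4 fell and 5 did not pass the test, and their median log2 fold change was -0.36, against -0.63 over all genes. *glh-1*, a Vasa-like helicase of P granules, had 65.1, 67.9 and 65.9 CPM in *daf-2* nuclei, against 150.1, 234 and 238 CPM in *daf-2* worms. *gld-1*, a translational repressor of the meiotic germline, had 22.04, 28.3 and 17.2 CPM in *daf-2* nuclei, against 78.8, 135 and 148 CPM in *daf-2* worms. Both were lower in every nuclei library than in any worm library. *syp-1*, a synaptonemal complex protein, was the marker that rose (104 against 70.4 CPM, log2FC 0.58 ± 0.224). Its call was lost without nuclei replicate 1, 2 or 3 or worm replicate 2 or 3, and its sign turned with library totals and with totals that leave out ribosomal and mitochondrial genes. Summed over the list, germline markers had 771 to 931 CPM in *daf-2* nuclei, against 821 to 1332 CPM in *daf-2* worms, muscle markers 55.9 to 90.1 CPM in *daf-2* nuclei, against 415 to 607 CPM in *daf-2* worms and intestine markers 163 to 290.2 CPM in *daf-2* nuclei, against 1766 to 3854 CPM in *daf-2* worms, with *elt-2* at 0 reads in all 3 nuclei libraries. The germline markers were thus not high in the nuclei, and the samples are called nuclei by their label. Markers of other tissues were mixed. Among 3 pharynx markers *myo-2*, a pharyngeal myosin, rose (14.1 against 2.67 CPM, log2FC 2.36 ± 0.541), and the 3 summed to 24.9 to 40.00 CPM in *daf-2* nuclei, against 8.54 to 16.4 CPM in *daf-2* worms. Of 2 hypodermis markers the collagen gene *dpy-7* rose (20.7 against 0.636 CPM, log2FC 5.21 ± 1.001), of 4 neuron markers 1 rose and 1 fell, and of 3 somatic gonad markers 1 fell. The part of RNA from such cells in the results was not tested.

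The nuclei libraries held 17.9, 13.9 and 15.4 M reads in genes, and the worm libraries 28.9, 22.8 and 27.7 M, as recovered from the spacing of the low values. Reads of nuclear ribosomal RNA took 62.03, 37.7 and 66.6% of the nuclei libraries and 9.29, 13.3 and 11.4% of the worm libraries, so that nuclei replicate 2 stood apart with the smallest share among the nuclei. At the deposited scale 1 read was worth 0.0888 to 0.157 CPM in nuclei and 0.0152 to 0.01904 CPM in worms, and 0 reads were listed as 0.0672 CPM, which is the value printed below for such a library. The deposited values of a nuclei library sum to 1236880.0 to 2492650.0 CPM, and of a worm library to 424276 to 437883 CPM, since the authors scaled the libraries. Between 2166 and 2815 of the genes in the table had 0 reads in a nuclei library, against 148 to 160 in a worm library. Across genes, log2 values correlated at 0.7997 to 0.823 between nuclei libraries, at 0.961 to 0.986 between worm libraries and at 0.528 to 0.659 between nuclei and worms. The median SD of a gene over 3 libraries was 0.678 in nuclei and 0.359 in worms on the log2 scale.

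More genes were lower than higher in the nuclei. In this test, with Benjamini-Hochberg adjustment, 2898 genes rose in *daf-2* nuclei (21.3% of those tested) and 4358 fell (32.0%), or 2742 and 4460 without nuclei replicate 2. In 24.2% of genes all 3 nuclei libraries stood above all 3 worm libraries, and in 36.5% all 3 stood below. Of the 13613 genes tested, 12740 were protein-coding and 269 belonged to the annotation's class ncRNA. At least 16-fold increases numbered 633, of which 351 were protein-coding genes and 178 ncRNA genes. At least 16-fold decreases numbered 1105, and 1073 of them were protein-coding. The filter itself bears on these counts. Of the genes tested, 10570 reached 1 CPM both in 3 or more of the 6 nuclei libraries of the 2 strains and in 3 or more of their 6 worm libraries, 1298 did so in nuclei alone 1366 in worms alone and 379 only over both fractions together. Genes kept through 1 fraction alone were chosen for being higher there, so that counts over them are no support for a difference. Of the genes that met the filter in each fraction, 2289 rose (21.7%) and 3316 fell (31.4%), with a median log2 fold change of -0.51, and of the at least 16-fold changes 246 increases and 507 decreases were in them. The median of all genes was -0.63 as deposited, -0.69 when scaled by the median of ratios, -0.15 after quantile normalization and -2.81 when scaled to library totals, which count the ribosomal reads. The share of higher among all calls moved with it, 39.9% as deposited, 49.8% after quantile normalization, 7.67% with library totals and 20.7% with totals that leave out ribosomal and mitochondrial genes. The medians of gene groups are to be read against that of all genes, and an increase smaller than the gap between the medians as deposited and with library totals changes sign under the second. With a pseudocount of 1 the median of all genes was -0.30, and 11 of the 43 list medians given below were smaller by over 1.5 times.

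**Figure D1:**
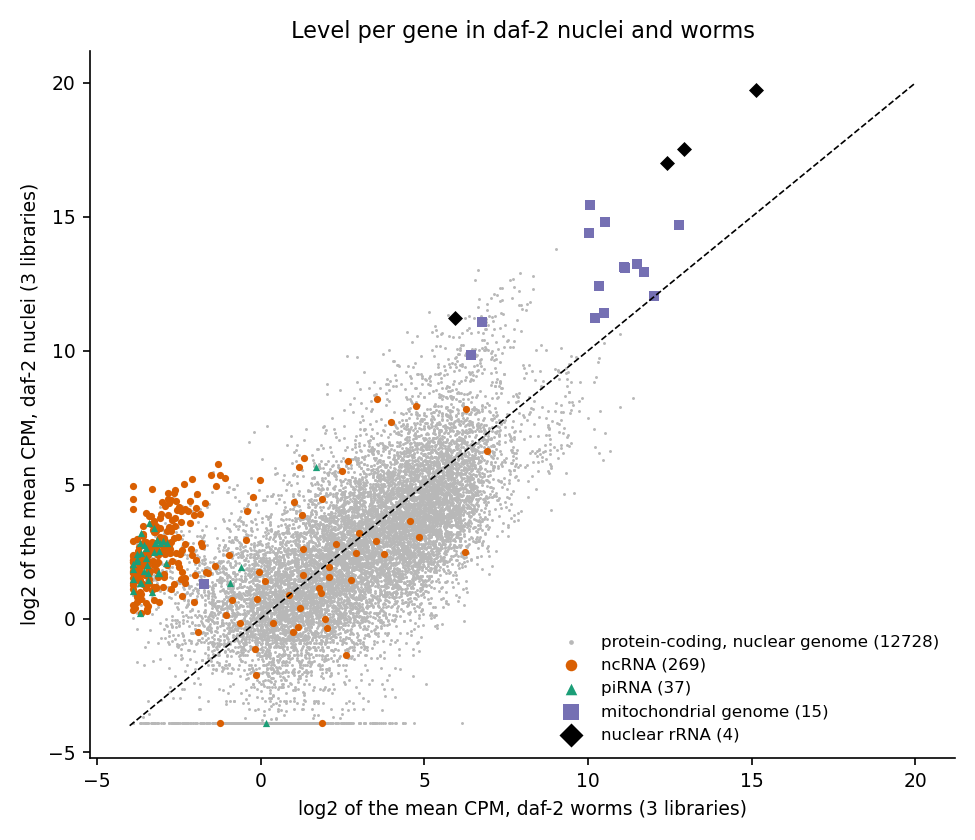
Mean level of each gene in *daf-2* worms (horizontal axis) and *daf-2* nuclei (vertical axis), as log2 of the mean CPM of 3 libraries, with the dashed line at equal levels. Most of the 269 ncRNA genes and 37 piRNA genes, which the filter kept mainly through nuclei, lie at the left edge above the line, the 4 nuclear ribosomal RNA genes and most of the 15 mitochondrial genes lie above it at the top, and genes with 0 reads in all nuclei libraries form the row at the bottom.

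Noncoding RNA genes were in the comparison mainly through the nuclei. Of 269 ncRNA genes tested, 220 met the filter in nuclei alone, and so did 35 of 37 piRNA loci, which encode small germline RNAs that guide the Argonaute PRG-1. Their higher level in nuclei was thus largely set by the filter, and their levels are a description. The median ncRNA gene had 5.21 CPM in *daf-2* nuclei and 0.122 CPM in *daf-2* worms, and spans 149 bases. The median piRNA locus had 4.47 CPM in *daf-2* nuclei and 0.0914 CPM in *daf-2* worms, and 32 of the 37 lie on chromosome IV. The worm medians of both classes lay close to the value listed for 0 reads. The annotated piRNA spans a median of 21 bases. Of the 38 ncRNA genes that met the filter in each fraction 17 rose and 8 fell, with a median log2 fold change of 0.20 (0.25 in wild type). Of 17 long intergenic RNAs of this kind 11 rose and 1 fell (median 2.01), and of 307 pseudogenes 102 rose and 35 fell (median 0.56). These were 44.7% and 21.1% of the ncRNA genes, 64.7% and 5.88% of the long intergenic RNAs and 33.2% and 11.4% of the pseudogenes. Of all 10570 genes that met the filter in each fraction 21.7% rose and 31.4% fell. All medians here are of log2 fold changes. With library totals these medians were -1.97 for ncRNA genes, -0.16 for long intergenic RNAs and -1.61 for pseudogenes, against -2.69 for all genes that met the filter in each fraction. With totals that leave out ribosomal and mitochondrial genes those of ncRNA genes (-0.69) and pseudogenes (-0.33) were negative as well.

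Several of the leading ncRNA genes lie inside introns of protein-coding genes. *C02F4.11* (chromosome IV, 10499919 to 10500197, minus strand, WBcel235), inside an intron of the calcineurin gene *tax-6* on the same strand, had 32.7, 20.3 and 40.8 CPM in *daf-2* nuclei and 0 reads in all 3 *daf-2* worm libraries, at least 631-fold higher with the worm level set to 3 reads per library. *T25C12.6* (chromosome X, 11473182 to 11473302, plus strand), inside an intron of the developmental timing gene *lin-14*, had 13.4, 26.1 and 26.3 CPM in *daf-2* nuclei and 0 reads in the *daf-2* worms, at least 443-fold higher. *T09A12.6* (chromosome IV, 8233500 to 8233590, minus strand), inside an intron of the nuclear hormone receptor gene *nhr-66*, had 20.1, 10.3 and 20.9 CPM in *daf-2* nuclei and 0 reads in the *daf-2* worms, at least 345-fold higher. The hosts themselves did not pass the test: *tax-6* had means of 12.5 ± 3.21 CPM in *daf-2* nuclei and 15.8 ± 1.71 CPM in *daf-2* worms (SD, n = 3 each), and *lin-14* had 1.89 ± 1.27 CPM in *daf-2* nuclei and 3.05 ± 1.99 CPM in *daf-2* worms. Among ncRNA genes with reads in both fractions, the largest fold change belonged to *T21F2.2* (chromosome X, 16730568 to 16730700, plus strand), inside an intron of the class II histone deacetylase gene *hda-4*, with 18.2, 15.2 and 53.1 CPM in *daf-2* nuclei, against 0.113, 0.0672 and 0.121 CPM in *daf-2* worms (log2FC 7.98). The worm values of *T21F2.2* lay at or near the value listed for 0 reads, so that its fold change depends on that value. *F10D11.7* (chromosome I, 8452153 to 8452312, plus strand), which overlaps no protein-coding gene, had 24.7, 29.5 and 57.1 CPM in *daf-2* nuclei, against 0.249, 0.277 and 0.172 CPM in *daf-2* worms (log2FC 7.25). In both, the lowest nuclei library stood above the highest worm library. Both met the filter in nuclei alone, so that this gap is a description and no support for a difference. The 10 largest increases with at least 5 CPM in the nuclei, and with no group wholly at 0 reads, were all in ncRNA genes, with log2 fold changes of 7.18 to 7.98, and 3 of them lie within introns. All ncRNA genes named here met the filter in nuclei alone, so that their place among the largest increases is a description as well. Of the 269 ncRNA genes tested, 60 lie within introns, 174 overlap no protein-coding gene and 35 overlap an exon. Of 55 tested host genes 13 rose and 14 fell, and their median was -0.44 (log2), while of all genes 21.3% rose and 32.0% fell, with a median of -0.63. The stated options of featureCounts name no strand setting, and its default does not use strand, so reads of an intron and of the ncRNA gene inside it cannot be told apart.

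Ribosomal and mitochondrial transcripts were higher in the nuclei on the deposited scale. The 4 nuclear ribosomal RNA genes lie in the tandem array at the end of chromosome I, and RNA polymerase I makes their small and large ribosomal RNA products in the nucleolus from one precursor. *rrn-2.1*, the short RNA of the large subunit, had 3293, 1160.2 and 2711 CPM in *daf-2* nuclei, against 41.4, 74.99 and 68.9 CPM in *daf-2* worms (log2FC 5.19 ± 0.4404, limma adjusted p = 7.16e-07). *rrn-3.1*, the long RNA of the large subunit, had 1145920.0, 336913 and 1158000.0 CPM in *daf-2* nuclei, against 28371, 42812 and 35677 CPM in *daf-2* worms (log2FC 4.44 ± 2.996, limma adjusted p = 0.225). Its nuclei libraries lay above its worm libraries, with SDs of 1.02 in nuclei and 0.297 in worms on the log2 scale. The SE comes from the intensity trend of the model, and without the trend it was 0.587 (limma adjusted p = 0.000188). After quantile normalization the log2 fold change was 0.00. That method gives this value to any gene with the same rank in all libraries, so that it cannot show a change there. The 2 copies of *rrn-1.1*, the RNA of the small subunit, rose with log2 fold changes of 4.43 and 4.43 (limma adjusted p = 0.00469 and 0.013). Both calls were lost without worm replicate 3 (the highest adjusted p without 1 library were 0.0501 and 0.102), and the copies share their reads. Ribosomal RNA has no polyA tail, and the part of the polyA selection in these values was not tested.

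Of the 15 genes of the mitochondrial genome that were tested, 11 rose (median log2 fold change 2.06, 1.01 in wild type), although the median turned to -0.28 with quantile normalization and -0.11 with library totals. Outside nuclear ribosomal RNA, mitochondrial reads, with mitochondrial ribosomal RNA among them, took 16.2, 26.4 and 20.8% of the nuclei libraries and 10.05, 6.45 and 6.41% of the worm libraries. The gene of subunit ND4L of complex I had 36744, 44822 and 52001 CPM in *daf-2* nuclei, against 1637, 716 and 879 CPM in *daf-2* worms (log2FC 5.45 ± 0.578, limma adjusted p = 4.76e-06). *ND6* (21646 against 1044 CPM, log2FC 4.44 ± 0.536) and *ND3* (28607 against 1461 CPM, log2FC 4.34 ± 0.5600), further subunits of complex I, followed, as did the small (2133 against 108.0 CPM, log2FC 4.32 ± 0.363) and the large mitochondrial ribosomal RNA (924 against 85.5 CPM, log2FC 3.45 ± 0.287). In contrast *CYTB*, the cytochrome b gene, had 3356, 6109.6 and 3326 CPM in *daf-2* nuclei, against 5209, 3469 and 3614 CPM in *daf-2* worms (log2FC 0.02 ± 0.472, limma adjusted p = 0.973), and these groups overlapped. The 3 shortest of the 12 mitochondrial protein-coding genes (235 to 437 bases) had the 3 largest log2 fold changes, 4.34 to 5.45, while the other 9 (602 to 1602 bases) had 0.02 to 2.09, of which 5 passed the test. In wild type the same 3 had 2.10 to 2.53 and the others -0.38 to 1.02. Across these 12 genes, which share their transcripts and libraries, log2 length and log2 fold change had Pearson's r of -0.91. The calls of *COX3* and *ATP6* were lost without 1 library, with adjusted p of up to 0.148 and 0.0826.

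Among protein-coding genes of the nuclear genome that rose at least 16-fold, the 12 with the highest mean CPM in nuclei are described here. *top-1*, which encodes DNA topoisomerase I, had 19319, 10469.8 and 12502 CPM in *daf-2* nuclei, against 768, 399.9 and 381 CPM in *daf-2* worms (log2FC 4.80 ± 0.448, limma adjusted p = 1.54e-06). *xnp-1*, the ATRX family chromatin remodeler, had 10440.1, 5485 and 6959 CPM in *daf-2* nuclei, against 346, 195 and 194 CPM in *daf-2* worms (log2FC 4.97 ± 0.4195, limma adjusted p = 6.9e-07). *chaf-1*, a subunit of chromatin assembly factor 1, had 8516, 4754 and 5725 CPM in *daf-2* nuclei, against 299, 144 and 145 CPM in *daf-2* worms (log2FC 5.06 ± 0.3899, limma adjusted p = 3.51e-07). In each of the 3 genes every nuclei library was at least several fold above every worm library. The spliceosomal genes *prp-40* (4749 against 239 CPM, log2FC 4.28 ± 0.335) and *mfap-1* (5010.0 against 321 CPM, log2FC 4.04 ± 0.416), *rbpl-1*, of the RBBP6 family (6485 against 209 CPM, log2FC 4.93 ± 0.401), and *tos-1* (5199 against 159 CPM, log2FC 5.02 ± 0.4700) were among the 12, as was *iffb-1*, the translation initiation factor eIF5B (5216 against 166 CPM, log2FC 4.98 ± 0.412). *F59E12.9* (8331 against 99.4 CPM, log2FC 6.36 ± 0.412), *F53H1.4* (6354 against 93.3 CPM, log2FC 6.06 ± 0.3599), *F58B3.4* (7118 against 322 CPM, log2FC 4.55 ± 0.424) and *cir-1* (5307 against 215 CPM, log2FC 4.66 ± 0.394) completed them. They were picked after their values were seen, and CPM is not corrected for length. All 12 also had positive log2 fold changes in wild type, 2.29 to 3.80.

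**Figure D2:**
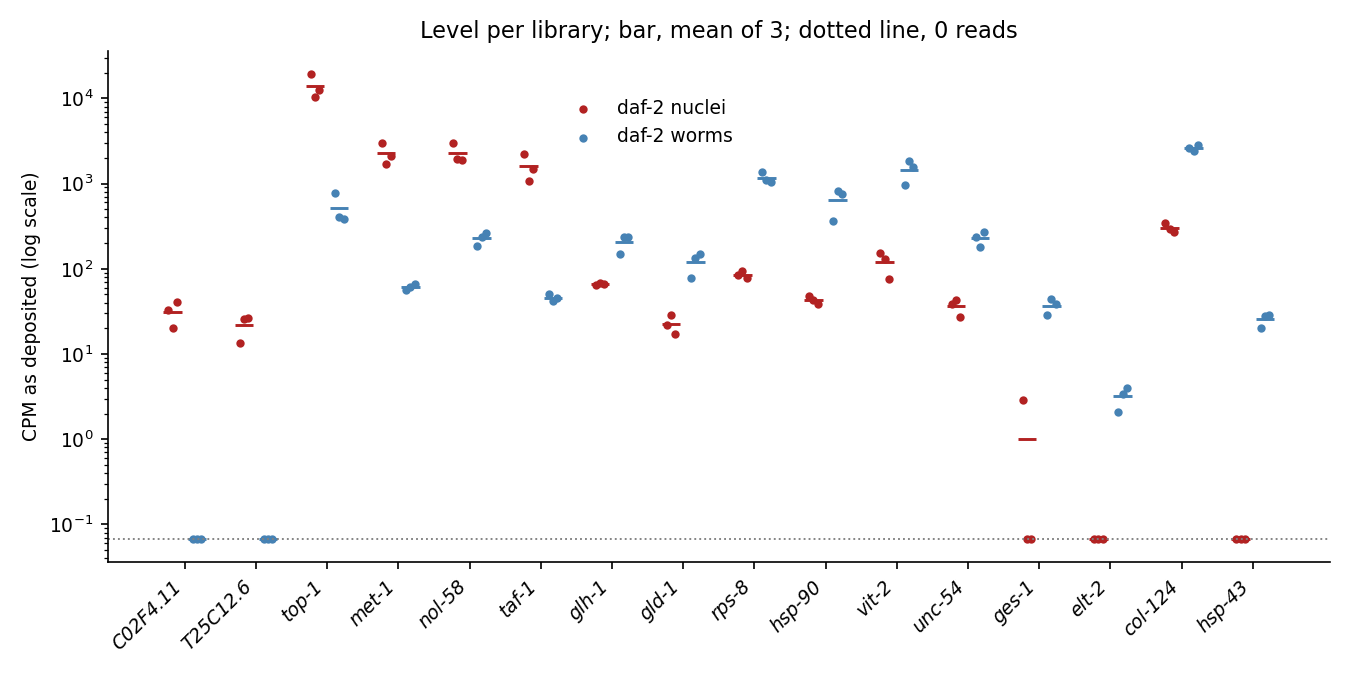
Level of 16 genes in each *daf-2* nuclei library (red, left) and each *daf-2* worm library (blue, right), in CPM on a log axis, with the mean of 3 libraries as a bar and the table's value for 0 reads as a dotted line. The ncRNA genes *C02F4.11* and *T25C12.6* and the genes *top-1*, *met-1*, *nol-58* and *taf-1* stand higher in nuclei, the other 10 genes lower, and *elt-2* and *hsp-43* are at 0 reads in all 3 nuclei libraries.

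Over the 8 lists of nuclear proteins, 115 of 501 genes rose (22.95%) and 147 fell (29.3%), shares near those of all genes (21.3% and 32.0%), and the median log2 fold change was -0.52. Over the 435 genes of these lists that met the filter in each fraction, 24.6% rose and 27.4% fell (median -0.37). Ribosome biogenesis genes, whose products process and assemble ribosomal subunits in the nucleolus, were the list with the highest median among the 43 apart from the mitochondrial genome: 24 of 40 rose and 6 fell, with a median log2 fold change of 1.07 (0.68 in wild type), which turned to -1.10 with library totals. *nol-58*, a core protein of box C/D snoRNPs, had 2999, 1936 and 1910.4 CPM in *daf-2* nuclei, against 184, 236 and 263 CPM in *daf-2* worms (log2FC 3.31 ± 0.322, limma adjusted p = 2.18e-06). *pro-3* (739.6 against 26.2 CPM, log2FC 4.79 ± 0.311), *pro-2* (1612 against 86.7 CPM, log2FC 4.19 ± 0.359) and *utp-20*, of the small subunit processome (1814 against 116 CPM, log2FC 3.95 ± 0.285), rose with it. The 6 that fell included the RNA exosome subunits *exos-2* (2.47 against 29.7 CPM, log2FC -3.74 ± 0.482) and *exos-3* (11.03 against 37.4 CPM, log2FC -1.70 ± 0.359) and *exos-4.2*, which had 2.16, 0.0672 and 0.338 CPM in *daf-2* nuclei, against 39.2, 29.1 and 25.5 CPM in *daf-2* worms. Chromatin regulators split, as 28 of 88 rose and 39 fell (median -0.82). *met-1*, the methyltransferase of histone H3 (H3K36), had 2982, 1700.3 and 2131 CPM in *daf-2* nuclei, against 56.7, 61.3 and 65.8 CPM in *daf-2* worms (log2FC 5.18 ± 0.339, limma adjusted p = 1.83e-07), and the groups lay far apart. *hcp-6*, a condensin subunit (1468 against 58.5 CPM, log2FC 4.60 ± 0.322), *swsn-4*, the ATPase of the SWI/SNF complex (2523 against 143 CPM, log2FC 4.13 ± 0.367), and *dot-1.1*, the methyltransferase of histone H3 (H3K79) (291 against 22.2 CPM, log2FC 3.76 ± 0.254), rose as well. *set-1*, the methyltransferase of histone H4 (H4K20) (9.65 against 94.7 CPM, log2FC -3.30 ± 0.322), and *spr-1*, the CoREST homolog (2.56 against 57.8 CPM, log2FC -4.65 ± 0.4501), fell.

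Of the transcription machinery 25 of 87 rose and 27 fell (median -0.25, but 0.07 with quantile normalization), 28.7% and 31.0%, against 21.3% and 32.0% of all genes. *taf-1*, the largest TFIID subunit, had 2242, 1066 and 1471 CPM in *daf-2* nuclei, against 49.9, 42.1 and 45.7 CPM in *daf-2* worms (log2FC 5.05 ± 0.3402, limma adjusted p = 1.83e-07), without overlap of the groups. *taf-8*, also of TFIID (1629 against 110.3 CPM, log2FC 3.92 ± 0.2902), and the Mediator subunit *mdt-19* (1672 against 99.4 CPM, log2FC 4.15 ± 0.307) rose. The elongation factor *spt-5* (8.93 against 68.1 CPM, log2FC -2.89 ± 0.322) and *gtf-2E1*, of TFIIE (12.6 against 48.2 CPM, log2FC -1.95 ± 0.278), fell. Of splicing factors 11 of 55 rose and 27 fell (median -1.03). *snrp-200*, the U5 snRNP helicase (347 against 28.98 CPM, log2FC 3.57 ± 0.286), and the SR protein gene *rsp-6* (828 against 146 CPM, log2FC 2.56 ± 0.273) rose. The SR protein gene *rsp-2* (7.49 against 67.7 CPM, log2FC -3.15 ± 0.314) and *prp-19* (4.63 against 56.2 CPM, log2FC -3.65 ± 0.383) fell. Of nucleoporins 6 of 25 rose and 8 fell (median -0.41), with *npp-14*, the homolog of NUP214, among those that fell (6.93 against 82.2 CPM, log2FC -3.70 ± 0.517). Of histone genes 5 of 20 fell (2 without nuclei replicate 3, 1 without worm replicate 1 and 3 without worm replicate 2 or 3). Histone copies share reads, and most of their messages lack a polyA tail. Among 156 nuclear hormone receptor genes, 16 rose (27 without nuclei replicate 1) and 27 fell (42 without nuclei replicate 2), median -0.67, but 0.16 with at least 5 CPM. Of those that met the filter in each fraction, 12 rose and 14 fell. *nhr-34* (109.6 against 4.95 CPM, log2FC 4.39 ± 0.321) and *nhr-48* (135 against 9.01 CPM, log2FC 3.90 ± 0.284) rose. Homeobox genes counted 5 higher (3 without nuclei replicate 2 or 3 or worm replicate 1, 2 or 3) and 8 lower (5 without worm replicate 1, 2 or 3) of 30 (median -0.76, but 0.30 with at least 5 CPM), with *ceh-100* at the top (560.2 against 27.1 CPM, log2FC 4.41 ± 0.305), and of the 18 that met the filter in each fraction, 3 rose and 1 fell.

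**Figure D3:**
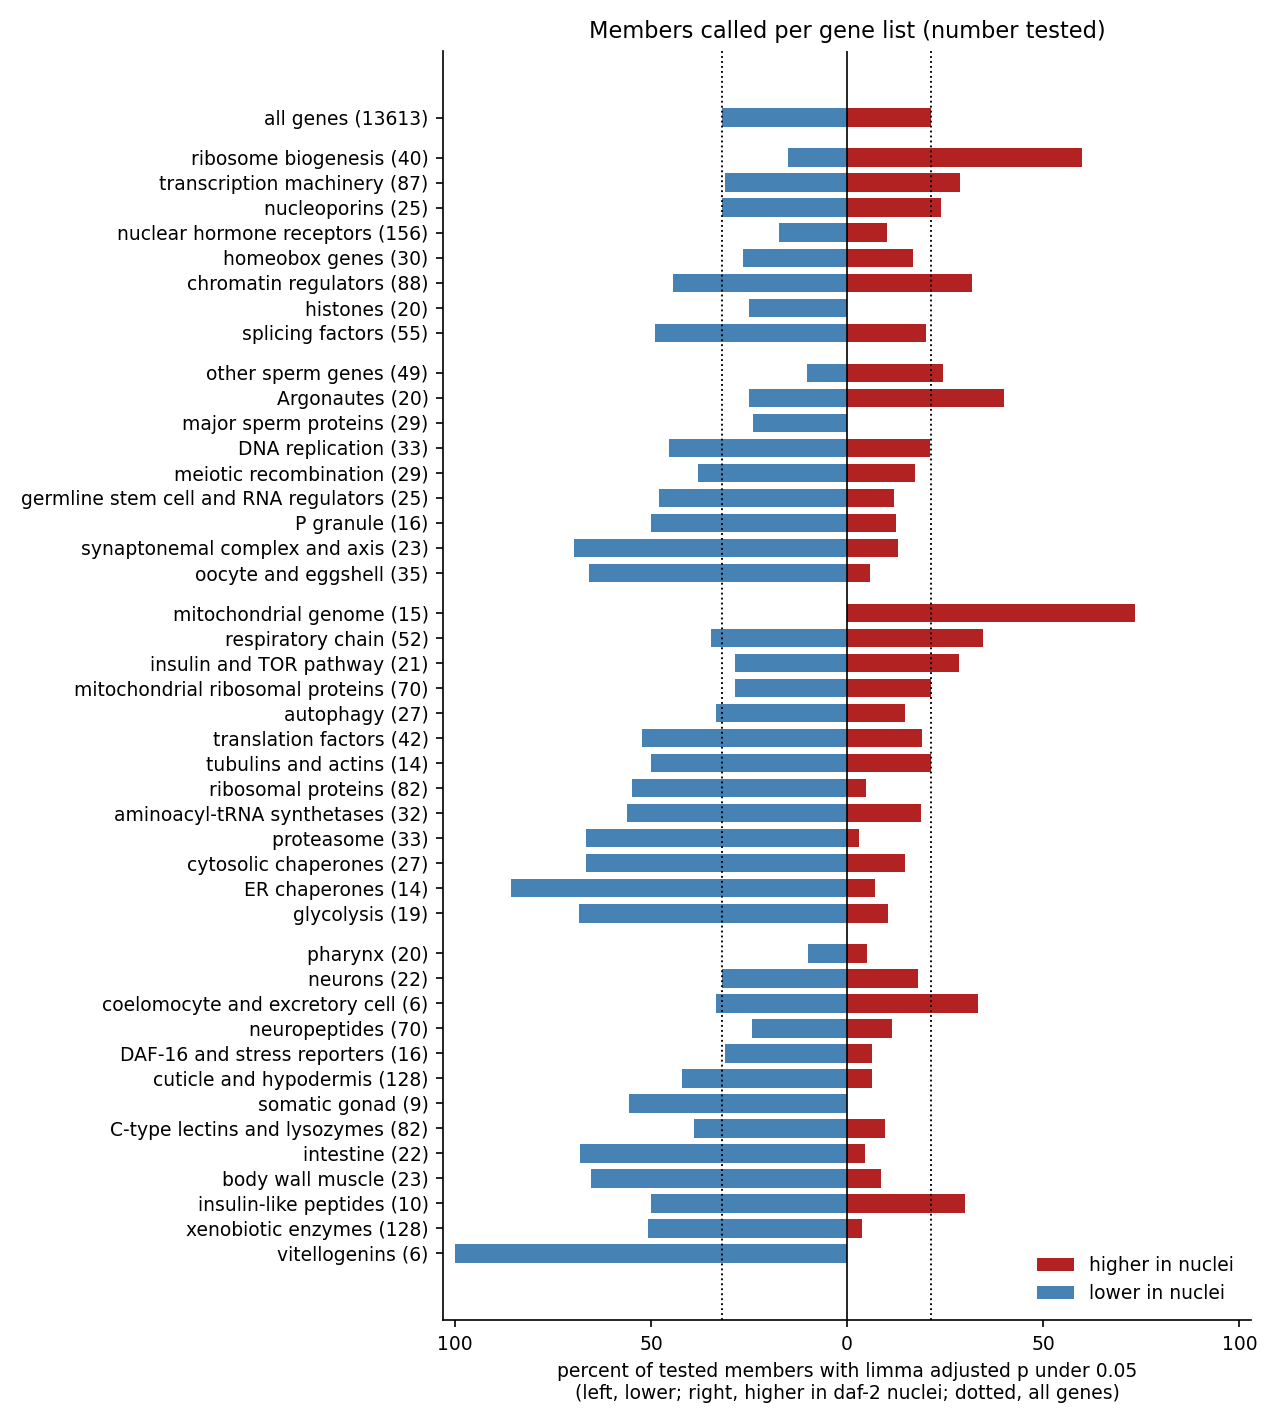
Percent of the tested members of each gene list that rose (red, to the right) or fell (blue, to the left) in *daf-2* nuclei against worms, with the number tested in brackets and the shares over all genes (21.3% and 32.0%) as dotted lines, and the lists are grouped as nuclear, germline, cytoplasmic and somatic and ordered by median within a group. Ribosome biogenesis and the mitochondrial genome reach furthest to the right, and vitellogenins and chaperones of the endoplasmic reticulum furthest to the left.

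Of the 9 germline lists 6 had a median below that of all genes. Over all genes 21.3% rose and 32.0% fell, and the counts of this and the following lists are to be read against these shares. In the germline, many messages are made early and kept in the cytoplasm under translational control until oocytes or sperm form, and germ granules dock at the nuclear pores. Of the synaptonemal complex and chromosome axis genes 3 of 23 rose and 16 fell (median -1.41, -1.05 in wild type). *syp-4*, a central region protein of the complex, had 47.00, 59.3 and 50.00 CPM in *daf-2* nuclei, against 124, 146 and 142 CPM in *daf-2* worms (log2FC -1.40 ± 0.245, limma adjusted p = 0.000325). *him-8*, which pairs the X chromosomes, had 0.0672, 0.866 and 0.694 CPM in *daf-2* nuclei, against 36.5, 23.2 and 23.9 CPM in *daf-2* worms. It met the filter in worms alone, so that its lower level in nuclei is a description. Of the 21 genes of this list that met the filter in each fraction, 3 rose and 14 fell. Of oocyte and eggshell genes 2 of 35 rose and 23 fell (median -1.64). *cey-2*, a Y-box RNA-binding protein gene of the germline, had 18.2, 21.8 and 9.79 CPM in *daf-2* nuclei, against 390.4, 553 and 465 CPM in *daf-2* worms (log2FC -4.89 ± 0.494, limma adjusted p = 3.06e-06). *rme-2*, the yolk receptor of oocytes (23.3 against 133 CPM, log2FC -2.45 ± 0.408), *egg-3*, needed for egg activation (6.87 against 50.01 CPM, log2FC -2.94 ± 0.364), and *cpg-2*, an eggshell proteoglycan gene (139 against 449 CPM, log2FC -1.64 ± 0.374), fell. *chs-1*, the eggshell chitin synthase (971 against 164 CPM, log2FC 2.48 ± 0.285), and *pie-1*, a repressor of transcription in germ cell precursors (86.7 against 18.6 CPM, log2FC 2.33 ± 0.332), rose.

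Of stem cell and RNA regulators 3 of 25 rose and 12 fell (6 without worm replicate 2 and 5 without worm replicate 3), median -1.16. The PUF proteins FBF-1 and FBF-2 keep germline stem cells undifferentiated, and *fbf-1* (41.96 against 8.11 CPM, log2FC 2.28 ± 0.395) and *fbf-2* (35.98 against 6.69 CPM, log2FC 2.36 ± 0.3798) rose. Those that fell included *gld-1* (22.5 against 121 CPM, log2FC -2.40 ± 0.3697) and *gld-3* (17.4 against 72.6 CPM, log2FC -2.01 ± 0.408), which promote meiosis or gamete formation. A pattern by function within the list was not tested. The genes *fbf-1* and *fbf-2* are near-identical copies, so that their reads may be shared. Of P granule genes 2 of 16 rose and 8 fell (median -1.39). *cgh-1*, a DEAD-box helicase gene (13.5 against 201 CPM, log2FC -3.91 ± 0.459), and *car-1* (39.4 against 217 CPM, log2FC -2.46 ± 0.406) fell. *mip-1* (193 against 55.3 CPM, log2FC 1.78 ± 0.215) and *pgl-3* (253 against 71.6 CPM, log2FC 1.78 ± 0.266) rose, both with the opposite sign under library totals. Argonautes bind small RNAs, and 8 of 20 rose and 5 fell (median -0.14, but 0.07 without nuclei replicate 3, 0.10 without worm replicate 2 and 0.08 without worm replicate 3). *wago-4*, which carries small RNAs between generations, had 252, 167 and 121 CPM in *daf-2* nuclei, against 19.1, 24.03 and 26.9 CPM in *daf-2* worms (log2FC 2.90 ± 0.288, limma adjusted p = 2.66e-06), and its groups did not overlap. *alg-5* (248 against 40.2 CPM, log2FC 2.62 ± 0.235) rose and *tsn-1*, a Tudor-SN gene kept on the list as a cofactor (24.5 against 87.2 CPM, log2FC -1.76 ± 0.282), fell. *csr-1* (89.7 against 104 CPM, log2FC -0.12 ± 0.334, limma adjusted p = 0.772) and *hrde-1* (133 against 159.7 CPM, log2FC -0.16 ± 0.386, limma adjusted p = 0.746) did not pass the test. Of meiotic recombination genes 5 of 29 rose (3 without nuclei replicate 1 or 3 or worm replicate 1) and 11 fell (median -0.88). *dsb-3* (179.7 against 27.6 CPM, log2FC 2.72 ± 0.3101) and *xnd-1* (156 against 32.5 CPM, log2FC 2.41 ± 0.334), both needed for normal double-strand breaks, rose, and *mre-11*, a break resection nuclease gene (14.9 against 72.04 CPM, log2FC -2.28 ± 0.339), fell. Of DNA replication genes 7 of 33 rose and 15 fell (median -0.83), 21.2% and 45.5%, against 21.3% and 32.0% of all genes. The clamp loader *rfc-1* (2658 against 168 CPM, log2FC 3.97 ± 0.304), the clamp PCNA, encoded by *pcn-1* (208 against 39.2 CPM, log2FC 2.42 ± 0.2500), and the helicase subunit *mcm-7* (325 against 45.7 CPM, log2FC 2.86 ± 0.325) rose. *rpa-1*, of the single-strand binding protein (22.2 against 99.03 CPM, log2FC -2.18 ± 0.243), and the origin licensing factor *cdc-6* (2.197 against 39.6 CPM, log2FC -4.74 ± 0.649) fell.

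Hermaphrodites make sperm before adulthood. Of major sperm protein genes 7 of 29 fell (12 without nuclei replicate 1), median -0.56, and 2 rose with the replicate block, in which nuclei and worms of equal number are pairs, with reads shared between the near-identical copies. Of the other sperm genes 12 of 49 rose and 5 fell (8 without nuclei replicate 3, 3 without worm replicate 1 or 2 and 2 without worm replicate 3), median -0.11, but 0.65 with at least 5 CPM, 0.15 with a pseudocount of 1, 0.81 with quantile normalization, 0.06 without nuclei replicate 1, 0.21 without nuclei replicate 2, 0.02 without worm replicate 1 and 0.09 without worm replicate 3. Of the 45 of these sperm genes that met the filter in each fraction, 11 rose and 4 fell. *spe-29* rose (29.8 against 0.511 CPM, log2FC 5.85 ± 0.529), but it met the filter in nuclei alone, so that its higher level is a description. Over all 9 germline lists, 42 of 259 genes rose (16.2%) and 102 fell (39.4%), median -0.84, and 41 rose and 97 fell of the 249 that met the filter in each fraction.

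Among the lists of cytoplasmic proteins more genes fell than rose. Of ribosomal protein genes 4 of 82 rose and 45 fell (median -0.95, -0.56 in wild type). *rps-8*, of the small subunit, had 84.2, 93.6 and 77.95 CPM in *daf-2* nuclei, against 1359, 1107 and 1056 CPM in *daf-2* worms (log2FC -3.78 ± 0.244, limma adjusted p = 1.83e-07). *rpl-3*, of the large subunit, had 75.1, 97.8 and 74.7 CPM in *daf-2* nuclei, against 439.7, 663 and 644 CPM in *daf-2* worms (log2FC -2.81 ± 0.224, limma adjusted p = 4.79e-07). In both, every nuclei library was below every worm library. *rps-24* (1252 against 1420.1 CPM, log2FC -0.11 ± 0.445, limma adjusted p = 0.849) and *rpl-32* (839.5 against 1293 CPM, log2FC -0.58 ± 0.331, limma adjusted p = 0.155) did not pass the test. Of translation factors 8 of 42 rose (5 without worm replicate 3) and 22 fell (median -0.81). *eif-1.A* (23.5 against 286 CPM, log2FC -3.61 ± 0.272) and *iff-1*, the germline form of eIF5A (28.95 against 343 CPM, log2FC -3.53 ± 0.333), fell. *eif-3.J*, a subunit of eIF3, had 1968, 1676 and 1584 CPM in *daf-2* nuclei, against 50.9, 35.4 and 37.4 CPM in *daf-2* worms (log2FC 5.41 ± 0.378, limma adjusted p = 2.06e-07). Of aminoacyl-tRNA synthetase genes 6 of 32 rose and 18 fell (median -1.04), and *lars-2*, the mitochondrial leucyl enzyme (407 against 51.98 CPM, log2FC 2.98 ± 0.291), was among those that rose.

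Of proteasome genes 1 of 33 rose and 22 fell (median -1.22). *rpn-7* (7.48 against 90.3 CPM, log2FC -3.60 ± 0.343) and *pas-5* (33.6 against 192 CPM, log2FC -2.47 ± 0.262) fell. The exception, *rpn-8*, another lid subunit, had 1401, 923 and 1010.2 CPM in *daf-2* nuclei, against 143, 94.2 and 87.00 CPM in *daf-2* worms (log2FC 3.37 ± 0.295, limma adjusted p = 9.07e-07). Most chaperone genes fell: of the cytosolic ones 4 of 27 rose and 18 fell (median -1.81), and of those of the endoplasmic reticulum 1 of 14 rose and 12 fell (median -1.93). *hsp-90*, the cytosolic HSP90 gene and a target of HSF-1, had 47.3, 42.6 and 38.9 CPM in *daf-2* nuclei, against 365, 829 and 750.1 CPM in *daf-2* worms (log2FC -3.83 ± 0.3500, limma adjusted p = 1.29e-06). *hsp-1*, the constitutive HSP70 (169 against 583 CPM, log2FC -1.79 ± 0.216), and the J-domain protein gene *dnj-19* (7.38 against 102 CPM, log2FC -3.86 ± 0.324) fell too. In the endoplasmic reticulum, calreticulin, *crt-1* (77.3 against 344 CPM, log2FC -2.10 ± 0.287), calnexin, *cnx-1* (12.7 against 133 CPM, log2FC -3.50 ± 0.324), and the disulfide isomerase *pdi-2* (6.403 against 67.96 CPM, log2FC -3.50 ± 0.378) fell. The exceptions that rose included the chaperonin subunit *cct-2* (293 against 72.5 CPM, log2FC 2.05 ± 0.271) and the oxidase *ero-1* (106 against 38.8 CPM, log2FC 1.43 ± 0.274), both with the opposite sign under library totals. Of glycolysis genes 2 of 19 rose and 13 fell (median -2.09). Hexokinase, *hxk-1* (13.2 against 109 CPM, log2FC -3.07 ± 0.336), phosphoglycerate mutase, *ipgm-1* (7.78 against 102 CPM, log2FC -3.78 ± 0.341), and enolase, *enol-1* (21.3 against 153 CPM, log2FC -2.91 ± 0.335), fell.

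Nuclear-encoded subunits of the respiratory chain went both ways, 18 of 52 rose and 18 fell (median 0.11, but -2.07 with library totals and -0.79 with totals that leave out ribosomal and mitochondrial genes). *atp-5*, of the ATP synthase, had 1134, 1129 and 1139 CPM in *daf-2* nuclei, against 191, 196 and 208 CPM in *daf-2* worms (log2FC 2.52 ± 0.2802, limma adjusted p = 7.31e-06). *cox-18* (135 against 10.5 CPM, log2FC 3.68 ± 0.274) and *cox-10* (53.2 against 5.099 CPM, log2FC 3.39 ± 0.305), which act in the assembly of cytochrome c oxidase, rose, and *nuo-2*, a complex I subunit (5.02 against 58.1 CPM, log2FC -3.57 ± 0.322), and *cox-6A*, a cytochrome c oxidase subunit (9.29 against 55.9 CPM, log2FC -2.60 ± 0.316), fell. Of mitochondrial ribosomal proteins 15 of 70 rose and 20 fell (12 without worm replicate 1), 21.4% and 28.6%, near the shares of all genes (median -0.23, but 0.07 with quantile normalization). Of tubulin and actin genes 3 of 14 rose and 7 fell, and of autophagy genes 4 of 27 rose and 9 fell (3 without worm replicate 2 and 4 without worm replicate 3), medians -0.90 and -0.43. Over the 13 lists of cytoplasmic and mitochondrial proteins, 83 of 448 genes rose (18.5%) and 210 fell (46.9%), median -0.74, and 82 rose and 205 fell of the 440 that met the filter in each fraction.

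In the insulin and TOR pathway, in which DAF-2 acts through AKT kinases to hold the FOXO factor DAF-16 in the cytoplasm, 6 of 21 rose and 6 fell (median -0.15, but 0.06 without worm replicate 3). *ist-1*, the insulin receptor substrate homolog, had 388, 279.6 and 474 CPM in *daf-2* nuclei, against 8.82, 7.17 and 8.46 CPM in *daf-2* worms (log2FC 5.52 ± 0.361, limma adjusted p = 1.83e-07). *daf-15*, the raptor homolog, had 1393, 823 and 979 CPM in *daf-2* nuclei, against 39.5, 76.8 and 75.7 CPM in *daf-2* worms (log2FC 4.08 ± 0.313, limma adjusted p = 3.38e-07). *akt-1* had 13.7, 14.9 and 4.14 CPM in *daf-2* nuclei, against 105, 126 and 122.1 CPM in *daf-2* worms (log2FC -3.63 ± 0.428, limma adjusted p = 1.19e-05). In all 3 genes the libraries of the fractions did not overlap. *daf-2* itself had 10.5, 11.8 and 7.91 CPM in *daf-2* nuclei, against 10.3, 30.1 and 36.2 CPM in *daf-2* worms (log2FC -1.17 ± 0.652, limma adjusted p = 0.144), and its groups overlapped. *hsf-1* had 53.5, 44.6 and 34.9 CPM in *daf-2* nuclei, against 9.900, 29.4 and 30.5 CPM in *daf-2* worms (log2FC 1.08 ± 0.411, limma adjusted p = 0.0394), a call lost in 8 of the alternatives, with adjusted p of up to 0.189 without 1 library. With the replicate block its adjusted p was 0.0522. Its tag is present in both strains.

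Of the 4 classes of lists the somatic one had the lowest median. Its counts, too, are to be read against the 21.3% of all genes that rose and the 32.0% that fell. Of intestine genes 1 of 22 rose and 15 fell (median -2.24, -0.78 in wild type), and all 6 vitellogenin genes, which make yolk in the intestine, fell (median -3.16). *vit-2* had 155, 130.1 and 76.5 CPM in *daf-2* nuclei, against 949, 1864 and 1563 CPM in *daf-2* worms (log2FC -3.60 ± 0.358, limma adjusted p = 2.64e-06). *vit-6* had 72.8, 71.6 and 38.3 CPM in *daf-2* nuclei, against 719.8, 1867 and 1639.7 CPM in *daf-2* worms (log2FC -4.48 ± 0.434, limma adjusted p = 2.1e-06). *ges-1*, the gut esterase, had 2.89, 0.0672 and 0.0672 CPM in *daf-2* nuclei, against 28.8, 43.8 and 38.3 CPM in *daf-2* worms. *elt-2*, the GATA factor of the intestine, had 0 reads in all 3 nuclei libraries and 2.096, 3.43 and 4.01 CPM in the worms, at least 8.26-fold lower with the nuclei level set to 3 reads per library. This gene met the filter in worms alone. The vitellogenins summed to 303 to 646 CPM in *daf-2* nuclei, against 3131 to 6583 CPM in *daf-2* worms. Of body wall muscle genes 2 of 23 rose and 15 fell (median -2.29). *unc-54*, the major myosin heavy chain, had 38.97, 42.9 and 27.3 CPM in *daf-2* nuclei, against 234, 182 and 273 CPM in *daf-2* worms (log2FC -2.67 ± 0.304, limma adjusted p = 9.07e-06), and paramyosin, *unc-15* (27.2 against 209.7 CPM, log2FC -2.97 ± 0.355), *myo-3* (8.32 against 64.3 CPM, log2FC -2.97 ± 0.429) and the light chain *mlc-2* (43.5 against 446 CPM, log2FC -3.35 ± 0.271) fell alike. The exceptions were titin, *ttn-1*, with 4208, 3265 and 3956 CPM in *daf-2* nuclei, against 206, 140.2 and 152 CPM in *daf-2* worms (log2FC 4.53 ± 0.418, limma adjusted p = 1.4e-06), and tropomyosin, *lev-11* (656 against 263 CPM, log2FC 1.33 ± 0.258), which turned negative with library totals or quantile normalization.

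Of cuticle and hypodermis genes 8 of 128 rose (5 without worm replicate 1) and 54 fell (median -1.42), and 16 rose with the replicate block. In this list, of the 108 that met the filter in each fraction, 7 rose and 48 fell. The collagen gene *col-124* had 347, 290.0 and 273 CPM in *daf-2* nuclei, against 2606, 2396 and 2871 CPM in *daf-2* worms (log2FC -3.12 ± 0.295, limma adjusted p = 1.73e-06). Other collagen genes that fell were *col-181* (77.3 against 1628 CPM, log2FC -4.40 ± 0.315), *col-129* (72.6 against 1290.0 CPM, log2FC -4.12 ± 0.3504) and *col-106* (237 against 2027 CPM, log2FC -3.08 ± 0.3796). Of xenobiotic enzymes, the cytochrome P450, UDP-glucuronosyltransferase and glutathione S-transferase genes, 5 of 128 rose (3 without worm replicate 2 or 3) and 65 fell (median -2.62, -1.06 with a pseudocount of 1 and -1.48 with quantile normalization), and of the 86 that met the filter in each fraction, 4 rose and 41 fell (median -1.96). Of C-type lectins and lysozymes, which act in innate immunity, 8 of 82 rose and 32 fell (median -1.82), and of the 49 that met the filter in each fraction, 5 rose and 18 fell. *clec-88* (4.94 against 98.4 CPM, log2FC -4.36 ± 0.3900) fell, and *clec-180* (59.5 against 2.09 CPM, log2FC 4.89 ± 0.785) and *clec-142* (52.1 against 3.43 CPM, log2FC 3.99 ± 0.409) rose. Of neuropeptide genes 8 of 70 rose (5 without nuclei replicate 1 or 2, 3 without worm replicate 2 and 2 without worm replicate 3) and 17 fell (8 without worm replicate 1 and 9 without worm replicate 2), median -1.23, and of the 49 that met the filter in each fraction, 6 rose and 10 fell. Of neuronal genes 4 of 22 rose and 7 fell (4 without nuclei replicate 3 or worm replicate 2 or 3), median -0.42, but 0.10 with at least 5 CPM or with the filter met in each fraction, 0.01 with a pseudocount of 1, 0.46 with quantile normalization and 0.33 without nuclei replicate 1. The shares of neuronal genes, 18.2% and 31.8%, were near those of all genes (21.3% and 32.0%). *unc-10*, of presynaptic active zones, rose (16.9 against 1.87 CPM, log2FC 3.05 ± 0.598). *unc-25*, of GABA synthesis, which met the filter in worms alone, had 1.18, 0.0672 and 0.0672 CPM in *daf-2* nuclei, against 4.89, 4.14 and 4.64 CPM in *daf-2* worms. Pharynx genes mostly did not pass the test, as 1 of 20 rose and 2 fell (median -0.34, but 0.02 with a pseudocount of 1, 1.13 with quantile normalization and 0.29 without nuclei replicate 1), and 2 rose with the replicate block. Of somatic gonad genes 5 of 9 fell (3 without nuclei replicate 3 or worm replicate 2 or 3), median -1.43, and of the 6 that met the filter in each fraction, 2 fell. Of insulin-like peptide genes 3 of 10 rose and 5 fell (3 without nuclei replicate 1 or worm replicate 1 or 2), median -2.59, but 2.52 with at least 5 CPM, and with at least 5 CPM 2 rose and 0 passed as lower in limma's test. Here of the 4 that met the filter in each fraction, 1 rose and 2 fell. DAF-16 and stress reporter genes, of which 1 of 16 rose and 5 fell (3 without worm replicate 2), had a median of -1.39. Coelomocyte and excretory cell genes, of which 2 of 6 rose and 2 fell, had a median of -1.19, but 1.13 with at least 5 CPM or with the filter met in each fraction, 0.19 with quantile normalization and 0.09 without nuclei replicate 3. Over the 13 somatic lists 43 of 540 genes rose (7.96%) and 230 fell (42.6%), with a median of -1.66, and of their 392 genes that met the filter in each fraction 34 rose and 167 fell (median -1.43).

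The following 4 genes were among the 10 largest decreases with at least 5 CPM in worms and reads in both fractions. *F59B1.2* had 0.0672, 0.422 and 0.0672 CPM in *daf-2* nuclei, against 36.6, 30.2 and 32.3 CPM in *daf-2* worms (log2FC -8.05 ± 0.756, limma adjusted p = 1.61e-06). *inpp-5K*, an inositol phosphatase gene, had 0.0672, 0.0672 and 0.538 CPM in *daf-2* nuclei, against 18.05, 30.8 and 27.2 CPM in *daf-2* worms. *tyms-1*, thymidylate synthase, had 0.0672, 3.17 and 0.0672 CPM in *daf-2* nuclei, against 46.5, 40.9 and 33.5 CPM in *daf-2* worms. *paic-1*, of purine synthesis, had 0.0672, 3.35 and 0.0672 CPM in *daf-2* nuclei, against 35.1, 40.3 and 35.1 CPM in *daf-2* worms. In all 4 at least 1 nuclei library was at 0 reads, so that their fitted fold changes depend on the value listed for 0. Further, 655 genes had 0 reads in all 3 *daf-2* nuclei libraries, and 57 of them averaged at least 5 CPM in *daf-2* worms. Of these 57, 54 were protein-coding, 16 lay on the X chromosome and 7 were at 0 in all wild-type nuclei libraries as well. For comparison, 12740 of the 13613 genes tested were protein-coding, and 1621 of the 12728 protein-coding genes of the nuclear genome lay on X. *T25C12.3* (X chromosome) had 33.9, 87.3 and 93.03 CPM in the *daf-2* worms, at least 186-fold lower in nuclei with 3 reads per nuclei library as the floor. *hsp-43*, a small heat shock protein gene, had 20.1, 27.6 and 28.8 CPM in the worms and was at least 66.2-fold lower. *lbp-3*, of the lipid-binding proteins, had 28.9, 15.6 and 18.7 CPM in the worms and was at least 54.8-fold lower. The floor of 3 reads per library covers counting error only. Of the protein-coding genes named above, *spe-29* met the filter in nuclei alone and *him-8*, *elt-2*, *unc-25*, *inpp-5K*, *tyms-1* and *hsp-43* in worms alone. The exons of *syp-1*, *prp-40*, *iffb-1*, *pro-3*, *utp-20*, *exos-2*, *hcp-6*, *spr-1*, *spt-5*, *gtf-2E1*, *rsp-2*, *egg-3*, *chs-1*, *pie-1*, *fbf-1*, *alg-5*, *csr-1*, *xnd-1*, *mcm-7*, *spe-29*, *rpl-32*, *rpn-7*, *hsp-90*, *crt-1*, *cnx-1*, *daf-15*, *akt-1*, *vit-2*, *mlc-2*, *ttn-1*, *col-124*, *clec-88*, *F59B1.2*, *paic-1* and *Y46H3C.5* overlap another gene, with which their reads may be shared or split, and the same holds between near-identical copies such as the vitellogenin, collagen and actin genes.

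Position and structure of the genes were examined as features that the choice of genes had not used. The X chromosome is largely silent in germ cells through most of meiosis and poor in germline genes. Of its 1621 protein-coding genes tested, 11.5% rose and 36.3% fell, and the median log2 fold change was -1.38, whereas of 11107 on autosomes 20.4% rose and 33.2% fell, with a median of -0.65. The autosomal medians ran from -0.93 on V to -0.41 on I. Without the genes of the somatic and sperm lists the medians were -1.34 for X and -0.63 for autosomes, and with at least 5 CPM they were -0.84 and -0.42. In single libraries the median log2 CPM of X genes minus that of autosomal genes was -1.79, -1.55 and -1.51 in *daf-2* nuclei, against -1.45, -1.25 and -1.30 in *daf-2* worms. This difference within a library is free of the scaling between libraries, and all 3 nuclei values were below the lowest worm value. Over the genes that met the filter in each fraction it was -1.53, -1.34 and -1.19 in *daf-2* nuclei, against -1.42, -1.26 and -1.31 in *daf-2* worms, and the groups overlapped. Of these genes 13.1% rose and 30.9% fell on X, with a median fold change of -0.99 on the log2 scale, and 21.97% rose and 32.3% fell on autosomes, with a median of -0.50. The wild-type medians were -0.92 for X and -0.37 for autosomes. Genes with long introns stood higher. With protein-coding genes in 5 equal groups by total intron length, the median log2 fold changes were -0.88, -0.99, -0.99, -0.69 and -0.12 from the shortest to the longest, and 26.7% of the longest group (2916 to 86625 bases of intron) rose, against 15.9% of the shortest. The groups of intermediate length were as low as the shortest, so that the difference lay in the longest 2 groups. Over genes that met the filter in each fraction the medians of the 5 groups were -0.71, -0.83, -0.67, -0.54 and 0.00. Groups made likewise by exon length had medians of -0.56, -0.87, -1.01, -0.92 and -0.37. Genes are not replicates, and no test was made over them.

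**Figure D4:**
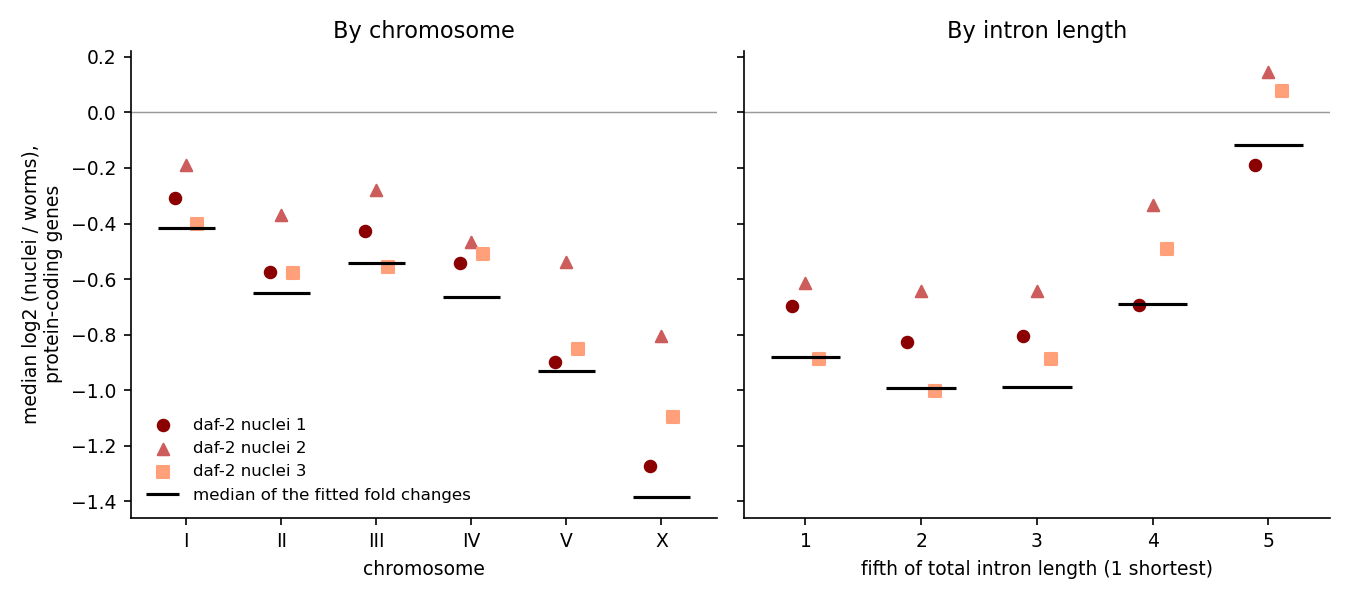
Median log2 ratio of nuclei to worms over protein-coding genes, by chromosome (left) and by group of total intron length (right, shortest to longest), for each *daf-2* nuclei library against the mean of the worms (symbols) and for the fitted fold changes (bars). The X chromosome has the lowest fitted median (-1.38), and the group with the longest introns the highest (-0.12).

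The wild-type nuclei and worms, which share no library with the *daf-2* samples, were set beside them. In wild type 15.9% of genes rose in nuclei and 19.4% fell. Of the genes higher in *daf-2* nuclei 69.7% were higher in wild-type nuclei, which is 93.1% of the wild-type list, and of the genes lower 50.9% were lower, or 84.1% of the wild-type list. The genes *F14B6.3*, *F53B2.8* and *Y106G6D.2*, chosen here after their values were seen, were called higher in nuclei in *daf-2* and lower in nuclei in wild type. None of them passed the test of the difference between the genotypes given below. The genes that rose in *daf-2* had a median log2 fold change of 2.45 in *daf-2* and 1.62 in wild type, and those that fell -2.91 and -1.58. These genes were chosen in *daf-2*, so a larger size there is part of the choice. When the difference of the ratios itself was tested, 3 genes had a higher ratio in *daf-2* (0.0220% of those tested) and 11 a lower one (0.0808%). *Y46H3C.5* had 1095, 631 and 869.8 CPM in *daf-2* nuclei, against 6.81, 8.14 and 8.34 CPM in *daf-2* worms, and 152, 358 and 267 CPM in wild-type nuclei, against 18.9, 10.95 and 20.8 CPM in wild-type worms (difference 2.86 ± 0.4702 (SE, log2), limma adjusted p = 0.0363). *C42D4.18* had 54.4, 61.4 and 34.1 CPM in *daf-2* nuclei, against 3.31, 1.496 and 1.63 CPM in *daf-2* worms, and 48.00, 86.7 and 37.9 CPM in wild-type nuclei, against 28.6, 21.03 and 22.6 CPM in wild-type worms (difference 3.42 ± 0.552 (SE, log2), limma adjusted p = 0.0363). Both were higher in nuclei in each genotype, with the wider gap in *daf-2*. *cpr-6*, a cathepsin B-like protease gene of the intestine, had 29.7, 34.3 and 26.4 CPM in *daf-2* nuclei, against 123, 166 and 101 CPM in *daf-2* worms, and 81.2, 63.95 and 79.6 CPM in wild-type nuclei, against 80.3, 52.04 and 73.1 CPM in wild-type worms (difference -2.24 ± 0.351 (SE, log2), limma adjusted p = 0.0363). Its decrease in nuclei was thus seen in *daf-2*, while its wild-type groups overlapped. Of the 11 genes with a lower ratio in *daf-2*, 9 were at 0 reads in all *daf-2* nuclei libraries and averaged at least 5 CPM in *daf-2* worms, so that their differences depend on the value listed for 0. The counts of these differences depended on single libraries. Without nuclei replicate 1, 2 or 3 the higher numbered 8, 36 and 16 and the lower 93, 136 and 85. Without worm replicate 1, 2 or 3 the higher numbered 1, 0 and 0 and the lower 1, 0 and 0. With the nuclei and worms of equal number as blocks, 0 and 1 passed. At an unadjusted p under 0.05, limma gave 837 higher and 829 lower with all 12 libraries and no blocks, 12.2% of the genes tested. The same limit gave 934 higher and 934 lower with these blocks, 621 higher and 534 lower without worm replicate 2 and 687 higher and 573 lower without worm replicate 3.

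**Figure D5:**
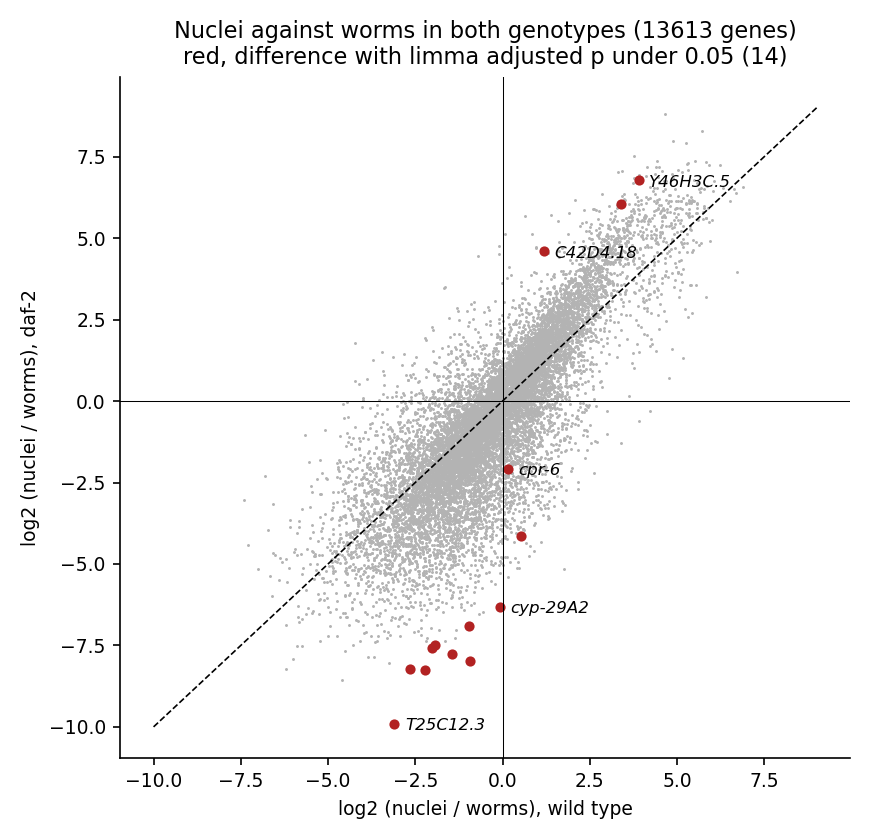
Log2 ratio of nuclei to worms per gene in *daf-2* (vertical axis) and in wild type (horizontal axis), with the dashed line at equal ratios and the 14 genes whose difference passed limma's test in red, 5 of them named. The 2 ratios correlated at 0.83 across genes, with medians over all genes of -0.63 in *daf-2* and -0.34 in wild type. The red points with the lowest *daf-2* ratios are mostly genes at 0 reads in all *daf-2* nuclei libraries.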

How the data were processed

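RNA was measured as polyA-selected, paired-end libraries of enriched germline nuclei and of whole worms. The authors aligned reads with STAR to WBcel235, counted them per gene with featureCounts, sharing multimapped and overlapping reads, removed genes with low expression and deposited log2 CPM values made with edgeR. The annotation was that of the same build (Ensembl 115), which named 13644 and placed 14186 of the 14206 genes. The deposited columns of the authors' own comparisons (fold changes and p-values) were not used. Tools whose versions are not printed here have none given in the sources used here. The stated counting options name no strand setting, and the default does not use strand.

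From the deposited log2 CPM of 12 libraries, 13613 genes that reached 1 CPM in 3 or more libraries were kept. A linear model with 4 group means was fitted in limma 3.58.1 with an intensity trend (R 4.3.3), and *daf-2* nuclei against worms, the same in wild type and the difference of these ratios were tested, two-sided, with Benjamini-Hochberg adjustment over all genes. Fold changes are on the scale of the deposited log2 values, in which 0 reads have a floor and changes of low genes are understated. The value of 1 read in CPM was read from the spacing of low values, which gave 13.9 to 28.9 M reads per *daf-2* library. Scripts were tested on simulated data. Python 3.11.15 with pandas 2.3.3, numpy 2.4.6, scipy 1.17.1 and matplotlib 3.10.9 was used for the rest.

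Groups were taken from the labels. The study calls its nuclei samples biological replicates, while for the worm samples no source used here says whether they are separate cultures, so their spread may be technical. Nuclei and whole worm lysate were saved from a preparation, but no source used here says that equal numbers mark the same one. Nuclei and worms of equal number deviated together at r = 0.0729, 0.0966 and 0.08802 in *daf-2* and 0.117, 0.113 and 0.138 in wild type, against -0.0552 to -0.0352 and -0.136 to 0.01899 for unequal numbers. The replicate block is therefore given where it changes a call. Named genes are the 10 largest and smallest fold changes with at least 5 CPM, non-overlapping groups and no group wholly at 0 reads, per list the 3 members with the highest CPM and up to 3 that moved against the majority, the 5 largest and smallest differences between genotypes, the 5 genes with the highest CPM in each fraction, and *daf-2* and *hsf-1*. Others were chosen after their values were seen: the most significant members of a list, the 12 genes with the highest CPM among those at least 16-fold changed, genes at 0 reads in 1 fraction, host genes and single contrasts. A few genes are not reported here. The comparison and the 43 gene lists were chosen with earlier results of these data known. The alternatives were other scalings, pseudocounts of 0.1 and 1, other filters (1 of them met in each fraction), no trend, the *daf-2* libraries alone, a replicate block, a 2-fold minimum and leaving out 1 library in turn.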

Additional observations from a re-analysis of the deposited data

Results flagged for a closer look

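The nuclei-to-worm ratio of 8 genes differed between *daf-2* and wild type in the test of the difference and met the level set for naming, and each is given with its log2 difference. The ratio was higher in *daf-2* for *C42D4.18* (3.42), *Y46H3C.5* (2.86) and *H37A05.4* (2.66). It was lower for *clec-56* (-7.04), *T25C12.3* (-6.82), *trpp-4* (-6.30), *cyp-29A2* (-6.25) and *lbp-3* (-6.01), and all 5 were at 0 reads in every *daf-2* nuclei library, so that the size of their difference depends on the value listed for 0. All 8 passed without any 1 of the nuclei libraries. Without worm replicate 1, 2 of the 8 passed limma's test. Without worm replicate 2 the adjusted p were 0.0961 to 0.213 and without worm replicate 3 0.0918 to 0.143, so that no gene of the 8 passed, although 8 of them had an unadjusted p under 0.05 in each. With the replicate block, in which nuclei and worms of equal number are pairs, only *T25C12.3* passed (limma adjusted p = 0.0326, up to 0.0954 for the others), and it was also the only one with library totals. With a pseudocount of 1, with quantile normalization and with totals that leave out ribosomal and mitochondrial genes 5 passed, not the same ones in each.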

How the results depend on the processing

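Among the counts of genes higher and lower in *daf-2* nuclei, the scaling of the libraries made the largest change. With library totals 789 genes were higher and 9503 lower in *daf-2* nuclei, and with totals that leave out ribosomal and mitochondrial genes, a setting chosen after seeing the data, 1747 and 6691. Leaving out 1 *daf-2* library gave 2481 to 2884 higher and 3442 to 4460 lower. The median of ratios, quantile normalization, the pseudocounts, the filters other than that on each fraction, the model without trend, the fit of the *daf-2* libraries alone, the replicate block (2918 and 4503) and the requirement of a 2-fold change kept both counts within 1.5 times, and so did the filter met in each fraction, chosen after seeing the data (2283 and 3316). The genes whose ratio was higher in *daf-2* than in wild type numbered 5 with at least 5 CPM, 0 with library totals, 33 without trend, 16 with a pseudocount of 1, 14 after quantile normalization, 0 with the replicate block, 0 with totals that leave out ribosomal and mitochondrial genes and 0 to 36 without 1 library. At an unadjusted p under 0.05, limma gave 381 such genes with library totals and 624 with totals that leave out ribosomal and mitochondrial genes. Those whose ratio was lower numbered 1 with library totals, 127 without trend, 7 after quantile normalization, 1 with the replicate block and 0 to 136 without 1 library. The cause was not tested. Of the counts of list members, 1299 of the alternative values stayed within 1.5 times and 247 did not. Among single genes outside the mitochondrial genome the sign turned with library totals for *cct-2* (-0.12), *ero-1* (-0.74), *hsf-1* (-1.10), *lev-11* (-0.84), *pgl-3* (-0.39), *syp-1* (-1.60) and *mip-1* (-0.39), after quantile normalization for *lev-11* (-0.15) and with totals that leave out ribosomal and mitochondrial genes for *syp-1* (-0.32), as log2 fold changes. Mitochondrial genes with increases below the gap between the medians, among them *COX3* (1.95 as deposited) and *ATP6* (1.73), turn with library totals as well. Without 1 library, the log2 fold changes of *csr-1* -0.54 to 0.091, *hrde-1* -0.68 to 0.11 and *rps-24* -0.31 to 0.25 crossed 0, and none of these genes had passed the test. The replicate block otherwise changed the calls of *hsf-1* and the members that rose in the lists of cuticle, pharynx (2) and major sperm protein genes (2), and no other call of a named gene or count of a list by over 1.5 times. In nuclei, values below the CPM of a few reads cannot be told from 0 at this depth.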

Other observations

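The nuclei libraries differed among themselves gene by gene. In *daf-2* nuclei 47 genes had at least 10 CPM in 1 library and 0 reads in another, whereas no such gene was found among the *daf-2* worm libraries. In wild type 251 genes were at 0 reads in all 3 nuclei libraries, of which 10 averaged at least 5 CPM in the wild-type worms, fewer than in *daf-2*. Conversely, 42 genes were at 0 reads in all 3 *daf-2* worm libraries, and the 7 of them that averaged at least 5 CPM in *daf-2* nuclei were 6 ncRNA genes and 1 long intergenic RNA. Among the 13613 genes tested, 269 were ncRNA genes and 41 long intergenic RNAs.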
